A study of Mus musculus with 12 samples.

Results

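The genes described here encode MHC class I and the proteins that load it with peptide. They are the 10 genes whose symbol in the deposited table is *H2-K1*, *H2-D1*, *H2-Q4*, *H2-Q6*, *H2-Q7*, *H2-T23*, *B2m*, *Tap1*, *Tap2* or *Tapbp*, out of 39017 genes counted. All 10 passed the filter on low counts that 14953 genes passed. RNA sequencing compared adrenals of 6 control (Ctrl) and 6 βCat-GOF female mice, 10 to 11 weeks old, on a mixed sv129-C57Bl/6 background. Ctrl mice carried ASCre/+, a Cre recombinase placed at the *Cyp11b2* locus and active in zona glomerulosa (zG) cells. βCat-GOF mice carried the same allele together with Ctnnb1fl(ex3)/+, from which Cre removes an exon so that β-catenin is stabilized. The comparison asked which transcripts differ when β-catenin is stabilized in the zG, and each value comes from the whole gland, trimmed of fat, which averages the zG with the rest of the cortex, the medulla, vessels and resident immune cells.

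MHC class I molecules display peptides from inside the cell to CD8 T cells and are read by natural killer cell receptors. Each consists of a heavy chain, encoded by an *H2* gene, and β2-microglobulin. Peptides cut by the proteasome are pumped into the endoplasmic reticulum by the TAP transporter, and tapasin holds the empty heavy chain next to it until a peptide is bound. Nearly all nucleated cells make class I, and interferons raise its transcription through IRF factors and the co-activator NLRC5, while NF-κB acts on a neighbouring element of the same promoters.

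The sequences before the RefSeq starts are shown because several heavy chain genes carry this pair of elements as an almost identical stretch. In the 250 bases before the RefSeq start (GRCm38.p6), which were at hand for 9 of the 10 genes and not for *Tap2*, both strands were searched for a κB motif (GGG, any 2 bases, TT, any base, CC), an IRF core (AANNGAAA), a CCAAT box of the Y type (CCAATCA) and an interferon-gamma activated sequence (TTCNNNGAA). The stretch that runs from the κB motif to the IRF core is given below for 5 heavy chain genes and *B2m*, with the matches in capitals. In *B2m* the order of the elements is turned round.
H2-K1: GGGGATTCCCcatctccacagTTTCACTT
H2-D1: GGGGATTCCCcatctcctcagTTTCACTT
H2-Q4: GGGGATTTCCCatctccccagTTTCACTT
H2-Q6: GGGGATTCCCcatctccccagTTTCACTT
H2-Q7: GGGGATTCCCatctccccagTTTCACTT
B2m: AACTGAAAatgGGAAAGTCCC
These lie at chr17:34000430-34000458 (minus strand), chr17:35262923-35262951, chr17:35379443-35379471, chr17:35424677-35424705, chr17:35439022-35439049 and chr2:122147550-122147570 (plus strand). Both motifs were present in 6 of the 9 windows, against 0.873% of 27025 gene promoters of the same length. The *H2-D1* stretch lies before the RefSeq start but inside the longer gene that GENCODE annotates, in its exons. In *H2-Q4* the κB letters match at 2 overlapping positions, which gives 11 capitals.

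The IRF core alone was found in 7 of the 9 windows (21.6% of all promoters) and CCAATCA in 6 (7.65%), while TTCNNNGAA was in 0 (7.18%). The longer windows of 3 *H2-Q* genes are printed because these neighbours are alike in their upstream sequence, while the counts of *H2-Q4* below differ from those of *H2-Q6* and *H2-Q7*. Capitals again mark the κB motif, the IRF core and CCAATCA.
H2-Q4: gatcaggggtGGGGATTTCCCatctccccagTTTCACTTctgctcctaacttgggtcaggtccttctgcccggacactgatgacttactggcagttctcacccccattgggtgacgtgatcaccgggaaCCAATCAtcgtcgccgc
H2-Q6: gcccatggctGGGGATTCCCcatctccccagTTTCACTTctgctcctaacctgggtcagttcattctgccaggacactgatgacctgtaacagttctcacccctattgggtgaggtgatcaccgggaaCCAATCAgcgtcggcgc
H2-Q7: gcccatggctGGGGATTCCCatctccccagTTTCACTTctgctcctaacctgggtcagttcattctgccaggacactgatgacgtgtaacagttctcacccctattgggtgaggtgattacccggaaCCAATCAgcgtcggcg
They span chr17:35379433-35379578, chr17:35424667-35424811 and chr17:35439012-35439154 on the plus strand. The match of letters describes the reference sequence and says nothing of which factor was bound in these mice.

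Between 13484675 and 25625494 reads per mouse were counted on genes. *Ctnnb1* had 20273 to 22606 normalized counts (counts divided by the median-of-ratios size factor) in Ctrl and 19229 to 22432 in βCat-GOF adrenals, and counts per gene cannot show the loss of an exon. *Cyp11b1*, the zona fasciculata enzyme that completes corticosterone, had 144025 to 348007 normalized counts over the 12 mice, and *Th*, the first enzyme of catecholamine synthesis, 5975 to 17114, so cortex and medulla were both present. The first number in the labels of the Ctrl mice differs from those of the βCat-GOF mice, and what it stands for cannot be told apart from the genotype.

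Within the MHC, 4 βCat-GOF libraries stood apart from the other 8. *H2-Ea-ps* is the class II alpha gene that lacks its promoter in the C57BL/6 reference but is transcribed in mouse strains of several other MHC haplotypes. It had 976, 836, 455 and 558 normalized counts in βCat-GOF replicates 1, 2, 4 and 6, 0 in βCat-GOF replicates 3 and 5, and at most 0.937 in Ctrl mice. The class I genes *H2-Q1* and *H2-Q2* followed the same mice, with 12.7 to 37.0 and 71.2 to 95.5 normalized counts in these 4, against at most 2.1 and 11.2 in the other 8 (*H2-Ea-ps* was singled out after its values were seen). Since 9 of the 10 genes lie in the same interval of chromosome 17, the fold change of each of the 10 genes is given for all 12 mice and also without these 4, as are the list genes whose call changed, which leaves 6 Ctrl and 2 βCat-GOF mice. The part of the MHC haplotype in the results was not tested, nor was how well reads of the 4 mice aligned to the reference.

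All 10 genes had a lower fitted level in βCat-GOF adrenals, as did 50% of all genes tested. Of the 10 genes, 6 passed the cut-offs for a downregulated gene: *H2-D1*, *H2-Q6*, *H2-Q7*, *H2-T23*, *B2m* and *Tap1*. The cut-offs were those of the study (more than 1.4-fold, with a base mean over 100 and a Benjamini-Hochberg adjusted p below 0.05), here with edgeR's quasi-likelihood test, and 0.869% of all genes tested were called lower by them and 1.48% higher. By the adjusted p alone 6 were lower and 0 higher, against 1.52% and 2.16% of all genes. In these same 6 genes every βCat-GOF mouse lay below every Ctrl mouse, as it did in 1.16% of all genes tested, and in 0 was every βCat-GOF mouse above every Ctrl mouse (1.61% of all genes). The median log2 fold change of the 10 genes was -0.72, and that of all genes tested 0.00011. The whole-gland value cannot separate fewer cells that carry class I from less class I RNA per cell.

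Without the 4 mice with *H2-Ea-ps* reads, 4 of the 10 genes were called lower, *H2-Q4*, *H2-Q7*, *H2-T23* and *B2m*, against 0.697% of the genes tested in that fit, and the median was -0.59. The 2 counts thus do not name the same genes: *H2-D1*, *H2-Q6* and *Tap1* were called only with all 12 mice and *H2-Q4* only without the 4, while 3 genes were called in both. When Ctrl replicates 1 and 3 and βCat-GOF replicate 1, whose labels repeat the stem of another mouse, were left out, 3 genes stayed past the cut-offs (*H2-T23*, *B2m* and *Tap1*), against 1.52% of all genes in that fit. The share of all genes called lower was also 0.404% to 1.49% when single mice were left out.

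**Figure D1:**
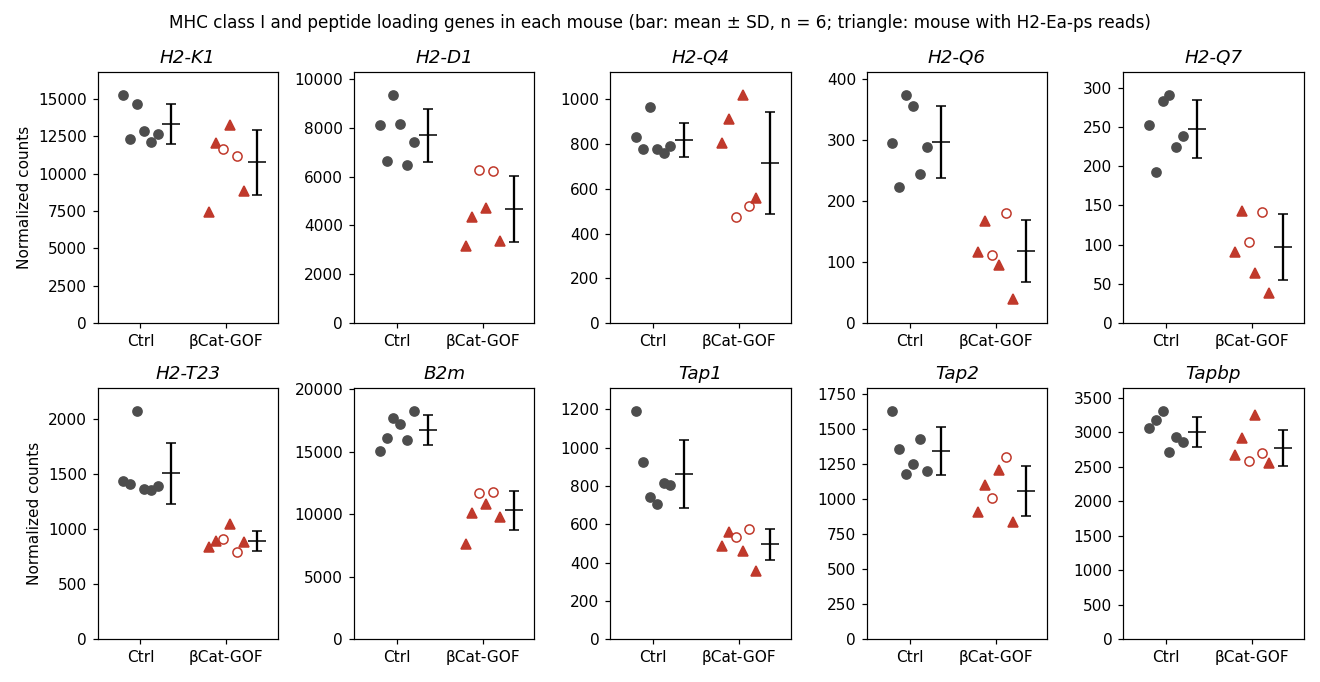
Normalized counts (vertical axes, from 0) of the 10 genes in each of 6 Ctrl (grey) and 6 βCat-GOF (red) mice, with mean and SD at the right of each group; triangles are the 4 βCat-GOF mice with *H2-Ea-ps* reads. The groups are separate in *H2-D1*, *H2-Q6*, *H2-Q7*, *H2-T23*, *B2m* and *Tap1*, and in *H2-Q4* the triangles spread from 559 to 1020 around the Ctrl values.

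*H2-K1* and *H2-D1* encode the classical heavy chains that present peptides to CD8 T cells. *H2-K1* (ENSMUSG00000061232, chr17:33996017-34000347 of GRCm38, the assembly of mm10) had a lowest, median and highest value of 12101, 12756 and 15294 normalized counts in Ctrl and 7473, 11430 and 13277 in βCat-GOF mice. The groups overlapped, with 5 of the 6 βCat-GOF mice below every Ctrl mouse and βCat-GOF replicate 4 above the Ctrl median. Its log2 fold change of -0.32 (standard error 0.131) did not pass (adjusted p = 0.19, edgeR). It was -0.23 in the fit without the 4 mice (standard error 0.123, adjusted p = 0.3).

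*H2-D1* (ENSMUSG00000073411, chr17:35262730-35267499) had 6463, 7763 and 9349 normalized counts as lowest, median and highest value in Ctrl and 3173, 4533 and 6264 in βCat-GOF mice. It fell by 0.73 on the log2 scale (standard error 0.168, edgeR adjusted p = 0.031), to 60.5% of the Ctrl level, with no overlap. Among βCat-GOF mice the 4 with *H2-Ea-ps* reads had 3173 to 4729 and the other 2 had 6230 and 6264, just under the lowest Ctrl mouse. Its log2 fold change shrank to -0.31 once the 4 were left out (standard error 0.146, adjusted p = 0.25). Dropping a single mouse also ended the call in 7 of 12 fits, those without Ctrl replicate 1, 3, 4 or 6 or βCat-GOF replicate 2, 4 or 6, where the log2 fold change was -0.74 to -0.65 and the edgeR adjusted p 0.052 to 0.07.

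The ratio of *H2-D1* to *H2-K1* counts within a mouse, a quantity chosen after the values were seen, showed the same split. It lay between 0.531 and 0.637 in Ctrl mice, between 0.356 and 0.425 in the 4 βCat-GOF mice with *H2-Ea-ps* reads, and at 0.537 and 0.556 in the other 2. The 2 mice without these reads were thus inside the Ctrl range of this ratio and the other 4 below it.

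The *H2-Q* genes encode Qa antigens, nonclassical class I chains, and *H2-Q7* gives the Qa-2 antigen, which can be anchored in the membrane by a lipid. *H2-Q6* (ENSMUSG00000073409, chr17:35424850-35430055) had 223, 292 and 374 normalized counts as lowest, median and highest value in Ctrl and 40.2, 113 and 181 in βCat-GOF mice. *H2-Q7* (ENSMUSG00000060550, chr17:35439155-35443773) had 192, 246 and 291 in Ctrl and 37.9, 97.5 and 143 in βCat-GOF mice. Both were the lowest in βCat-GOF replicate 6, and in neither did the groups overlap.

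The fall was larger in these 2 genes than in any other of the 10, -1.33 for *H2-Q6* (standard error 0.277, edgeR adjusted p = 0.018) and -1.35 for *H2-Q7* (standard error 0.263, edgeR adjusted p = 0.013) on the log2 scale, which left 39.9% and 39.2% of the Ctrl level. The differences between the folds of the 10 genes were not tested. In the fit without the 4 mice the values were -1.03 (adjusted p = 0.063) and -1.02 (adjusted p = 0.033). The spread among βCat-GOF mice was wide, with a coefficient of variation of 43.1% and 43.3%, above that of the other 8 genes.

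*H2-Q4* (ENSMUSG00000035929, chr17:35379617-35385290) encodes Qb-1, a class I chain that can be secreted. Its lowest, median and highest values were 759, 784 and 965 normalized counts in Ctrl and 472, 683 and 1020 in βCat-GOF mice. The βCat-GOF mice lay on both sides of the Ctrl values, with replicates 1, 2 and 4 above the Ctrl median and replicates 3, 5 and 6 below every Ctrl mouse. Over all 12 mice it did not pass (log2 fold change -0.20, standard error 0.179, edgeR adjusted p = 0.58).

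In the 2 βCat-GOF mice without *H2-Ea-ps* reads *H2-Q4* had 472 and 524 normalized counts, and without the 4 others its log2 fold change was -0.72 (standard error 0.118, edgeR adjusted p = 0.017). The ratio of *H2-Q4* to *H2-Q7* within a mouse, again chosen after the values were seen, was 2.67 to 4.06 in Ctrl, 6.36 to 16.1 in the 4 mice and 3.72 and 4.55 in the 2. In the 4 mice the *H2-Q* neighbours thus stood in proportions that no Ctrl mouse had. The mouse at 4.55, without these reads, was also above the Ctrl range, by less.

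*H2-T23* (ENSMUSG00000067212, chr17:36029773-36032855) encodes Qa-1, which presents leader peptides of other class I chains to the CD94/NKG2 receptors of natural killer cells. It had 1356, 1406 and 2076 normalized counts as lowest, median and highest value in Ctrl and 793, 888 and 1053 in βCat-GOF mice. It fell by 0.76 on the log2 scale (standard error 0.112, edgeR adjusted p = 0.0027), to 59.0% of the Ctrl level. No βCat-GOF mouse reached the lowest Ctrl mouse, and the βCat-GOF values were close together, with a coefficient of variation of 9.94%.

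Unlike in *H2-D1*, the 2 kinds of βCat-GOF mice overlapped in *H2-T23*, with 836 to 1053 normalized counts in the 4 with *H2-Ea-ps* reads and 793 and 912 in the other 2. The log2 fold change without the 4 was -0.84 (standard error 0.173, edgeR adjusted p = 0.035). Dropping any single mouse gave values from -0.82 to -0.64, and the gene was called in 12 of 12 such fits.

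*B2m* (ENSMUSG00000060802, chr2:122147686-122153083) encodes β2-microglobulin, the partner of every heavy chain, and is the only one of the 10 that lies outside the MHC, on chromosome 2. It had 15051, 16688 and 18268 normalized counts as lowest, median and highest value in Ctrl and 7633, 10452 and 11788 in βCat-GOF mice. It fell by 0.71 on the log2 scale (standard error 0.107, edgeR adjusted p = 0.0032), to 61.2% of the Ctrl level, with a wide gap between the groups. βCat-GOF replicate 1 was the lowest.

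Its values were 7633 to 10802 in the 4 mice with *H2-Ea-ps* reads and 11720 and 11788 in the other 2, all under the lowest Ctrl mouse. *B2m* was called lower in the fit without the 4 mice too (log2 fold change -0.52, standard error 0.114, edgeR adjusted p = 0.043). Dropping any single mouse did not end the call (12 of 12 fits).

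*Tap1* and *Tap2* encode the subunits of the peptide transporter. *Tap1* (ENSMUSG00000037321, chr17:34187553-34197225) had 704, 809 and 1191 normalized counts as lowest, median and highest value in Ctrl and 355, 510 and 573 in βCat-GOF mice. It fell by 0.81 on the log2 scale (standard error 0.142, edgeR adjusted p = 0.0069), to 57.1% of the Ctrl level, without overlap. In the 2 mice without *H2-Ea-ps* reads it had 532 and 573, and without the other 4 the log2 fold change of -0.65 (standard error 0.191) did not pass (adjusted p = 0.097).

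*Tap2* (ENSMUSG00000024339, chr17:34203527-34216321) had 1178, 1306 and 1629 normalized counts as lowest, median and highest value in Ctrl and 836, 1054 and 1304 in βCat-GOF mice. No βCat-GOF mouse was above the Ctrl median and 4 were below every Ctrl mouse, but the log2 fold change of -0.35 (standard error 0.117) did not pass (edgeR adjusted p = 0.12), nor did the -0.22 without the 4 mice (adjusted p = 0.4). The ratio of *Tap1* to *Tap2* within a mouse, also chosen after the values were seen, was 0.562 to 0.731 in Ctrl and 0.384 to 0.54 in βCat-GOF mice, with no overlap.

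*Tapbp* (ENSMUSG00000024308, chr17:33915899-33929292) encodes tapasin, which bridges the heavy chain and the transporter. It had 2709, 2997 and 3308 normalized counts as lowest, median and highest value in Ctrl and 2551, 2679 and 3245 in βCat-GOF mice. The groups overlapped, and its log2 fold change of -0.12 (standard error 0.082, edgeR adjusted p = 0.42) was the smallest of the 10. Without the 4 mice it was -0.20 (adjusted p = 0.26).

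**Figure D2:**
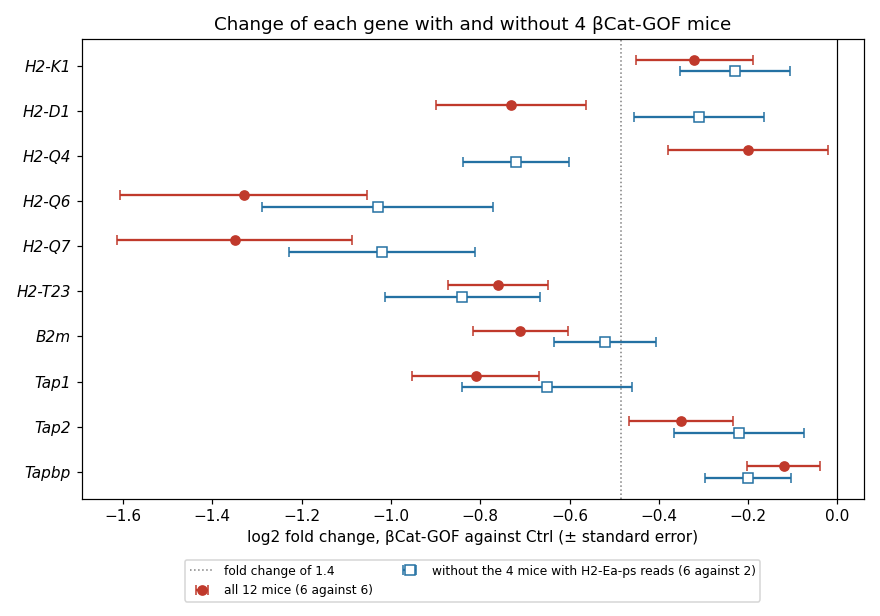
Log2 fold change of each gene, βCat-GOF against Ctrl, with its standard error (horizontal axis), from edgeR over all 12 mice (red) and without the 4 βCat-GOF mice with *H2-Ea-ps* reads (blue, 6 Ctrl against 2 βCat-GOF). All 20 values are below 0; *H2-D1* moves from -0.73 to -0.31 and *H2-Q4* from -0.20 to -0.72.

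An exact permutation test over the 924 splits of the mice, made for each gene on its normalized counts (two-sided, unadjusted, 10 tests), gave p = 0.0022 for the 6 genes whose groups do not overlap, which is the smallest it can give. The same exact test gave p = 0.028 for *H2-K1*, 0.022 for *Tap2*, 0.13 for *Tapbp* and 0.31 for *H2-Q4*. Of these 4, none passed in the fit over all genes.

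Seen mouse by mouse, each βCat-GOF mouse was low in most of the 10 genes. The median over the genes of the level relative to the Ctrl median was between 59.0% and 70.7% in the 6 βCat-GOF mice and between 96.0% and 115% in the 6 Ctrl mice. The number of genes below the lowest Ctrl mouse was 9, 8, 10, 6, 9 and 10 in βCat-GOF replicates 1 to 6. The share of all genes below the lowest Ctrl mouse was not worked out for single mice, so these counts describe the mice only. βCat-GOF replicate 4 stood out with *H2-Q4* at 130% and *H2-Q7* at 25.7% of the Ctrl median, and replicate 6 had the lowest single value, 13.8% for *H2-Q6*.

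**Figure D3:**
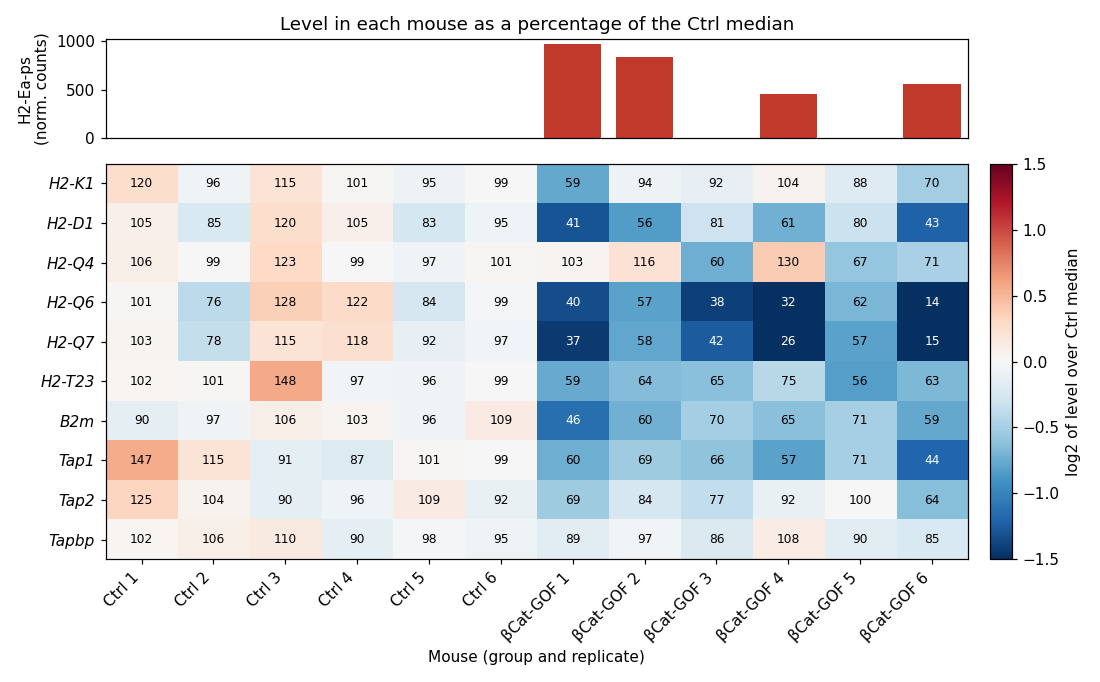
Level of each gene in each of the 12 mice as a percentage of the Ctrl median (numbers, colour on a log2 scale, blue below and red above), under a bar plot of *H2-Ea-ps* normalized counts. The lower levels of *H2-T23*, *B2m* and *Tap1* are seen in all 6 βCat-GOF mice, whereas *H2-D1* is at 40.9% to 60.9% in the 4 mice with bars and at 80.2% and 80.7% in the other 2.

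With the group means removed, pairs of the 10 genes varied together to very different degrees over the 12 mice (Pearson's r of log2 CPM, as a description over mice that share libraries and scaling). The closest pair was *H2-Q6* and *H2-Q7* (r = 0.97), followed by *Tapbp* and *H2-Q4* (0.79), *B2m* and *H2-D1* (0.77) and *Tap1* and *Tap2* (0.75). Within the groups of 6 the values differed for some pairs: *B2m* and *H2-D1* had r = 0.29 in Ctrl and 0.89 in βCat-GOF mice, and *B2m* and *Tap2* -0.98 and 0.6, where βCat-GOF includes the 4 mice that stand apart. *H2-Q6* and *H2-Q7* had 0.97 in both groups. The lowest pooled value, -0.33, belonged to *B2m* and *H2-Q4*. Outside the lists of genes used here, the 5 genes closest to the mean of the 10 were *Gbp4* (r = 0.866), *Isg20* (0.86), *Fcgr4* (0.846), *Tmem150c* (0.823) and *Snx9* (0.821), again over 12 mice with the group means removed. They are the highest values of a search through the 14953 genes that passed the filter, less the listed ones. So wide a search over 12 mice yields high values by chance alone, and the likeness of these 5 genes was not tested.

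Levels of different genes can be compared only per length. Per kilobase of merged exons, the Ctrl median was 19405 normalized counts for *B2m*, 4342 for *H2-K1*, 3010 for *H2-D1*, 826 for *Tapbp*, 487 for *H2-T23*, 345 for *Tap2*, 302 for *H2-Q4*, 148 for *Tap1*, 140 for *H2-Q6* and 57.7 for *H2-Q7*. In βCat-GOF adrenals the same quantity was 12154 for *B2m*, 3891 for *H2-K1* and 1758 for *H2-D1*. *Tap1* and *H2-Q6* stood next to each other in Ctrl with ranges that overlap per kilobase, as did *Tap2* and *H2-Q4*, so the order within these pairs is not firm.

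Heavy chain genes share sequence, and only uniquely mapping reads were counted, so reads from shared stretches could be dropped or placed elsewhere. In the longest GENCODE transcript of each gene, stretches of 50 bases that also occur in a transcript of another gene made up 36.9% of *H2-Q4*, slightly less of *H2-Q6*, 28.5% of *H2-Q7*, 16.0% of *H2-T23*, 14.3% of *H2-D1* and 8.11% of *H2-K1*, against 0% of *B2m* and 0.647% of *Tap1*. *Tapbp* (21.0%) and *Tap2* (12.6%) share most of theirs with overlapping annotated genes. At 100 bases the shares were 14.6% for *H2-Q4*, 13.5% for *H2-Q7*, a little less for *H2-Q6* and at most 4.64% for the other heavy chains. *Tapbp* shared 14.0% at that length. The levels of the genes with such shares are less certain than those of *B2m* and *Tap1*. All reads were aligned to the same reference genome. The MHC sequence of the βCat-GOF mice with *H2-Ea-ps* reads may differ from it. Whether such differences lowered or moved the counts of *H2-D1* or the *H2-Q* genes in these mice was not tested.

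Summed to a single feature, *H2-Q6* and *H2-Q7* had 414 to 657 normalized counts in Ctrl and 78.1 to 322 in βCat-GOF mice and fell by 1.34 on the log2 scale (standard error 0.265, edgeR adjusted p = 0.014). The 6 heavy chain genes summed had 21149 to 27734 in Ctrl and 12495 to 20238 in βCat-GOF mice, without overlap. The log2 fold change of this sum, in which *H2-K1* is the largest part, was -0.48 (standard error 0.133) and did not pass (edgeR adjusted p = 0.066).

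Neighbouring genes of the MHC were counted in the same way. On chromosome 17 between the start of *Tapbp* and the end of *H2-T23*, a span of 2117 kb, 111 genes were tested. Of the 86 that are neither among the 10 nor other *H2*-named or listed genes, 0 were called in either direction by edgeR, with a median log2 fold change of 0.04 and 33 of 86 below 0. An unadjusted p under 0.05 was found for 11 of them, and DESeq2 called 0 lower and 2 higher (*Hspa1b*, a heat shock gene, and *Cyp21a2-ps*, a pseudogene of the 21-hydroxylase). The share of all tested genes with such an unadjusted p is not given here. The 7 genes called lower in the interval were 5 of the genes described here, *Psmb8* and *Psmb9*.

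**Figure D4:**
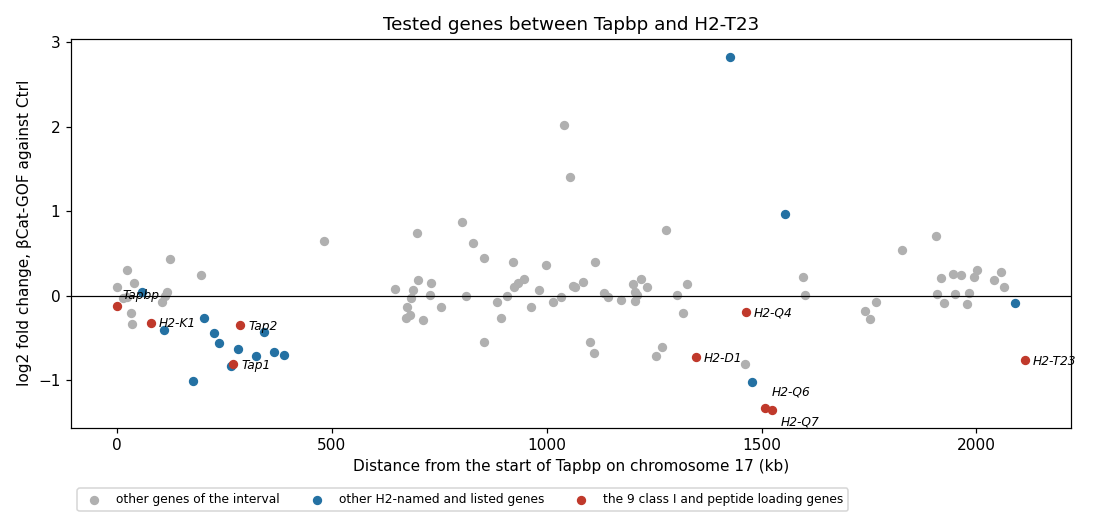
Log2 fold change, βCat-GOF against Ctrl (vertical axis), of the 111 tested genes between *Tapbp* and *H2-T23* by distance from the start of *Tapbp* in kb (horizontal axis). Red points are the 9 genes described here that lie on chromosome 17, blue points other *H2*-named or listed genes, and grey points the other 86, none of which was called by edgeR; the blue point near 3 is *H2-Q2* (2.83, not past the cut-offs).

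Of the other class I and class I-like heavy chain genes, 14 of 21 listed were tested, 1 was called lower and 0 higher, and the median log2 fold change was -0.09. A lower fitted level was found for 8 of the 14 (50% of all genes tested). In 3 of them, *H2-T22*, *H2-Q5* and *Mr1*, every βCat-GOF mouse lay below every Ctrl mouse (1.16% of all genes). The gene called was *H2-T22*, a nonclassical chain recognized by some γδ T cells, with 925, 1152 and 1273 normalized counts as lowest, median and highest value in Ctrl and 607, 682 and 732 in βCat-GOF mice. It fell by 0.74 on the log2 scale (standard error 0.086, edgeR adjusted p = 0.00061) and was called lower without the 4 mice too (-0.74, adjusted p = 0.021). *H2-Q5* (-1.02, edgeR adjusted p = 0.04) had at most 39.3 normalized counts in any mouse, too few for the base mean cut-off. *H2-M2* (-1.93, adjusted p = 0.085) and *H2-M3* (-0.57, adjusted p = 0.19) were lower and did not pass. *H2-Q2* (2.83, adjusted p = 0.031) was higher, with at most 95.5 normalized counts in any mouse, also too few for the base mean cut-off. Without the 4 mice *H2-Q2* had -0.34 (adjusted p = 0.76). *H2-Bl* (1.07, adjusted p = 0.3) and *H2-Q10* (0.97, adjusted p = 0.25) were higher and did not pass. *H2-T24*, close by, had a log2 fold change of -0.08 (adjusted p = 0.86), and *H2-T10*, a near relative of *H2-T22*, of -0.11 (adjusted p = 0.88).

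*Mr1*, which presents vitamin metabolites, and *Cd1d1*, which presents lipids, are encoded elsewhere and had log2 fold changes of -0.27 (edgeR adjusted p = 0.063) and 0.18 (adjusted p = 0.62). *Fcgrt*, the neonatal Fc receptor, which also pairs with β2-microglobulin, had 0.19 (adjusted p = 0.55).

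The immunoproteasome replaces the standard catalytic subunits after interferon and changes which peptides are cut. *Psmb9* had 320, 394 and 488 normalized counts as lowest, median and highest value in Ctrl and 137, 209 and 325 in βCat-GOF mice and fell by 0.83 on the log2 scale (standard error 0.2, edgeR adjusted p = 0.036). *Psmb8* had 651, 750 and 1119 in Ctrl and 378, 564 and 614 in βCat-GOF mice and fell by 0.63 (standard error 0.15, edgeR adjusted p = 0.034). In *Psmb8* the groups were separate, and in *Psmb9* the highest βCat-GOF mouse exceeded the lowest Ctrl mouse.

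The remaining immunoproteasome subunit *Psmb10* had a log2 fold change of -0.37 (adjusted p = 0.14), and the activator genes *Psme1* and *Psme2* had 0.13 (adjusted p = 0.66) and -0.05 (adjusted p = 0.85) by edgeR. Of the 3 standard subunits 0 were called by edgeR or DESeq2 and 0 had an unadjusted p under 0.05, with values between -0.19 (*Psmb5*) and 0.14 (*Psmb6*). Of the 8 peptide trimming and chaperone genes 0 were called by edgeR, 2 had an unadjusted p under 0.05 and the median was 0.04. The largest of these were *Thop1*, a cytosolic peptidase (0.62, adjusted p = 0.099, called higher by DESeq2), and *Calr*, which encodes calreticulin (0.41, adjusted p = 0.21). In the fit without the 4 mice *Psmb9* was called lower (-0.95, adjusted p = 0.031) and *Psmb8* was not (-0.71, adjusted p = 0.09).

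Among 15 regulators of class I transcription, 2 were called lower and 0 higher, with a median of -0.11. *Nlrc5*, the class I co-activator, had 179, 250 and 302 normalized counts as lowest, median and highest value in Ctrl and 72.5, 107 and 211 in βCat-GOF mice. It fell by 1.03 on the log2 scale (standard error 0.228, edgeR adjusted p = 0.025) and by 1.4 without the 4 mice (adjusted p = 0.023). *Irf7*, a factor of the interferon response, fell by 0.67 (standard error 0.136, adjusted p = 0.015), and without the 4 mice its -0.54 did not pass (adjusted p = 0.13).

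*Irf9*, a factor of the type I interferon response, had a log2 fold change of -0.47 with an edgeR adjusted p of 0.037 but a fold under 1.4. *Irf1* (-0.24, adjusted p = 0.36) did not pass. *Irf1* was called lower in the fit without the 4 mice (-0.54, adjusted p = 0.023).

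For the interferon receptors and kinases, 7 genes were tested and 0 called by edgeR or DESeq2 (0 with an unadjusted p under 0.05), with log2 fold changes between -0.06 (*Ifngr1*) and 0.11 (*Ifnar1*). Interferon genes themselves were at the limit of detection, where 3 counts is the floor. *Ifng* had at most 2.1 and *Ifnb1* at most 0.773 normalized counts in any mouse, and *Ifna2* and *Ifna4* had 0 in all 12.

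**Figure D5:**
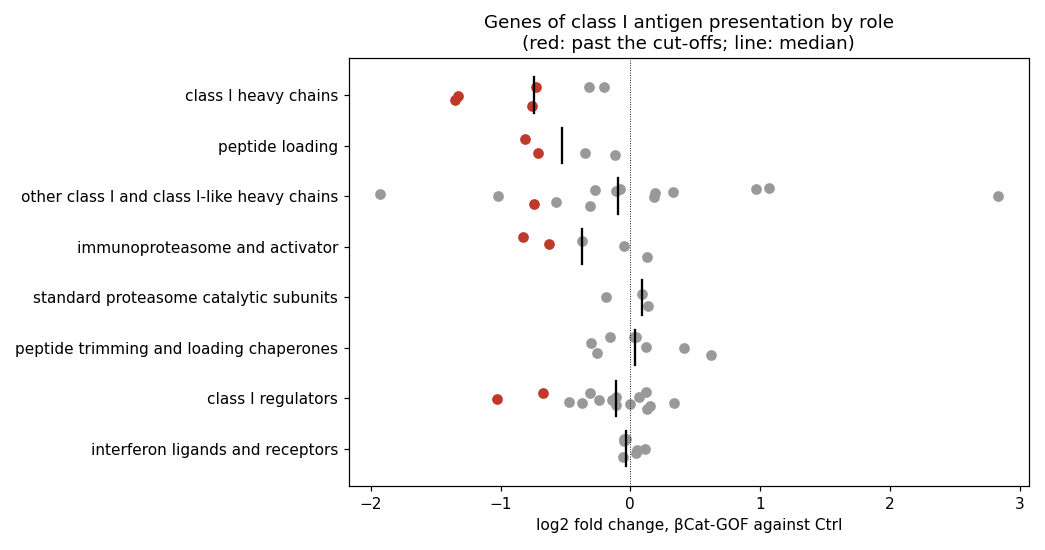
Log2 fold change, βCat-GOF against Ctrl (horizontal axis), of each tested gene in 8 lists of the class I pathway, with red points past the cut-offs and a line at the median of each list. Red points are found in 5 of the 8 lists, and the medians run from -0.74 for the 6 heavy chains to 0.09 for the standard proteasome subunits.

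Markers of cells that carry class I or read it were measured beside these genes. Of 11 leukocyte and macrophage markers, 8 had a lower fitted level (50% of all genes tested) and 2 were called lower: *Itgax* (-1.39, adjusted p = 0.002) and *Adgre1* (-0.78, edgeR adjusted p = 0.046), and DESeq2 called *Cd68* lower as well. An unadjusted p under 0.05 was found for 7 of the 11, 6 of them lower (also *Ptprc*, *Cd68*, *Mrc1* and *Cx3cr1*) and 1 higher (*Cd14*). The share of all tested genes with such a p is not given here, for this list or the others. The summed level of the 11 was 7613 to 14074 normalized counts in Ctrl and 5826 to 9792 in βCat-GOF mice, of which *Lyz2*, the lysozyme gene of myeloid cells, made up 4192 to 9483 and 2920 to 5977. *Ptprc*, the common leukocyte antigen, had -0.53 (adjusted p = 0.14) and *Csf1r*, the macrophage growth factor receptor, 0.11 (adjusted p = 0.72). *Itgax* was the marker still called without the 4 mice, and *Adgre1* then had -0.42 (adjusted p = 0.29).

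T and natural killer cell transcripts were scarce, with a summed level of 108 to 218 normalized counts in Ctrl and 117 to 209 in βCat-GOF mice over 11 markers, of which 4 could be tested and 0 were called by edgeR or DESeq2 (0 with an unadjusted p under 0.05). *Cd8a*, whose product binds class I, had at most 10.0 normalized counts in any mouse. Of the class I receptor genes 3 could be tested and 0 were called by edgeR or DESeq2 (0 with an unadjusted p under 0.05), among them *Pirb*, an inhibitory receptor of myeloid cells (-0.39, adjusted p = 0.25).

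The 10 endothelial markers had a summed level of 16269 to 20245 normalized counts in Ctrl and 14645 to 20663 in βCat-GOF mice. By edgeR or DESeq2 0 of them were called, 2 had an unadjusted p under 0.05, and the median log2 fold change was -0.12. Of the 6 zG markers 4 were called higher (*Dab2*, *Vsnl1*, *Agtr1a* and *Agtr1b*), against 1.48% of all genes tested. *Cyp11b2* (-0.18, edgeR adjusted p = 0.82) and *Hsd3b6* (0.15, adjusted p = 0.91) were not called. Without the 4 mice with *H2-Ea-ps* reads these had -0.98 (adjusted p = 0.18) and 0.59 (adjusted p = 0.73). The summed level of the 6 zG markers was 22724 to 31755 in Ctrl and 28943 to 49293 in βCat-GOF mice. Of 6 zona fasciculata markers *Akr1b7* alone was called (higher, 1.48, edgeR adjusted p = 0.046). Of 7 medulla, 8 capsule and stroma and 6 fat markers 0 were called by edgeR or DESeq2, and 1 of each list had an unadjusted p under 0.05. The summed levels were 78022 to 238394 and 98840 to 190561 for the medulla, 9288 to 17127 and 7289 to 14663 for capsule and stroma, and 3435 to 17825 and 4328 to 15211 for fat, in Ctrl and βCat-GOF mice. In the fit without the 4 mice *Dab2* (0.54, adjusted p = 0.097) and *Agtr1b* (1.33, adjusted p = 0.052) were not called by edgeR. The endothelial marker *Egfl7* was called lower there (-0.65, adjusted p = 0.03). The fat marker *Plin1* (1.08, adjusted p = 0.0043) and the class I-like gene *Hfe* (0.70, adjusted p = 0.043) were called higher. The fat markers did not move together in that fit, and their median log2 fold change was -0.17. *Adipoq* (-1.72), *Cidec* (-1.41) and *Lep* (-1.28) were lower, *Cfd* (1.11) and *Fabp4* (0.93) were higher, and none of these was called. The part of these cell types in the lower class I counts was not tested.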

How the data were processed

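RNA from adrenals of 12 mice was sequenced by the authors, 1 library per mouse by the study's account. The authors used STAR (mm10) for alignment and featureCounts 1.4.4 on reads with a unique position, and the deposited counts are not normalized. Annotation release and strand setting are not given in the sources used here. The authors also deposited a signal table, the counts divided by 1 factor per library, used here for gene symbols. Unmapped columns numbered 0. Libraries whose labels share a stem differed with chi-square over its degrees of freedom at 39.2 to 42.8, other pairs within a group by 15.8 to 136, so all were kept.

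Genes were tested with edgeR 4.0.16 (TMM, filterByExpr, quasi-likelihood test, two-sided, Benjamini-Hochberg over 14953 genes) in R 4.3.3. Standard errors are the log2 fold change over the square root of F. Normalized counts used the size factors of DESeq2 1.42.0 (the study used 1.6.3), which was also an alternative test. log2 CPM had a prior count of 2. The fits were tested on simulated counts of 14953 genes, of which 200 were changed, by the adjusted p alone. There edgeR recovered 149 with 4 false calls, and DESeq2 recovered 158 with 26 false calls. Genes called by DESeq2 and not by edgeR are therefore less certain. Positions came from GENCODE M21, promoters from RefSeq (GRCm38.p6). Other alternatives were other size factors, no filter, 10 counts in every mouse, adjusted p alone, summed genes and leaving out mice; leaving out the mice with *H2-Ea-ps* reads was added after the data were seen. Named genes are the 10, and from each list those past the cut-offs or up to 4 with the largest change, with *Nlrc5*, *Irf1* and the immunoproteasome genes always (1 further regulator is not reported here), the 5 genes most like the mean of the 10, and *Ctnnb1*; a few list genes outside this rule, *Ptprc*, *Csf1r*, *Cd8a*, *Cyp11b1*, *Th*, *Fcgrt*, *Mr1*, *Cd1d1*, *H2-T24*, *H2-T10*, *H2-Q1*, *H2-Q2*, *H2-Ea-ps*, *Cd1d2*, *Irf9*, *Ifng*, *Ifnb1*, *Ifna2*, *Ifna4*, *Hspa1b*, *Cyp21a2-ps*, *Cd68*, *Cd14*, *Mrc1*, *Cx3cr1*, *Lyz2*, *Egfl7*, *Plin1* and *Hfe*, were named after their values were seen. *H2-Q5*, *H2-M2*, *H2-M3*, *H2-Bl*, *H2-Q10*, *Cyp11b2*, *Hsd3b6*, *Adipoq*, *Cidec*, *Lep*, *Cfd* and *Fabp4* were also named after their values were seen. The members and lists were chosen with earlier results of these data known.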

Additional observations from a re-analysis of the deposited data

Results flagged for a closer look

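In 20 groups of 6 mice (10 genes in 2 genotypes), 2 values lay far from the rest of their group by Dixon's criterion, where chance gives about 1 in 20 groups. Both were in Ctrl replicate 3. *H2-T23* had 2076 normalized counts there against 1356 to 1441 in the other 5 Ctrl mice, and *H2-Q4* had 965 against 759 to 829. Without Ctrl replicate 3, *H2-T23* was still called lower.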

How the results depend on the processing

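The count of 6 downregulated genes was also found with DESeq2, with median-of-ratios size factors in edgeR, without a filter, with at least 10 counts in every mouse and with the adjusted p alone, and in these settings each of the 10 genes kept its direction and its call. Dropping a single mouse gave a count between 5 and 6, and *H2-D1* was the gene lost, in 7 of 12 fits. The 6 heavy chains as a single feature did not pass (-0.48, edgeR adjusted p = 0.066). Without 1 mouse of each pair whose label repeats a stem the count was 3, and *H2-D1* had a log2 fold change of -0.53, *H2-Q6* -1.22 and *H2-Q7* -1.27, with adjusted p of 0.1, 0.068 and 0.053 by edgeR; the cause was not tested. Without the 4 mice with *H2-Ea-ps* reads the count was 4, from a fit with only 2 βCat-GOF mice. No log2 fold change of the 10 genes changed sign in any alternative. Over all genes the counts called lower and higher were 130 and 222, against 283 and 363 with DESeq2, 228 and 323 with the adjusted p alone, and 228 and 255 without the mice whose label repeats a stem. Dropping a single mouse gave 61 and 146 (without Ctrl replicate 6), 63 and 167 (βCat-GOF replicate 6), 80 and 193 (βCat-GOF replicate 5) and 223 and 340 (βCat-GOF replicate 1). No paired analysis was possible because the labels give mouse numbers and no replicate numbers shared between the groups. *H2-Q6* and *H2-Q7* had the fewest counts of the 10, at least 33 reads in every mouse, so counting noise weighs most on them.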

Other observations

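*Cd1d2*, a lipid-presenting relative of class I on another chromosome, also split the mice, but not as *H2-Ea-ps* did. It had 7.5 normalized counts in Ctrl replicate 2 and 0.895 in βCat-GOF replicate 3, against 172 to 541 in the other 10 mice, while *Cd1d1* had 4410 and 11436 in these 2 mice and 5270 to 9345 in the others. *Cd1d2* did not differ between the groups beyond the spread between mice (log2 fold change -0.31, standard error 0.771, edgeR adjusted p = 0.86).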
